A study of Mus musculus with 2 samples.

Results

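The endoplasmic reticulum (ER) is where secreted and membrane proteins enter the secretory route, fold and are checked, and the genes described here encode that machinery. The set holds 37 mouse genes listed by name, all of which were found among the 55357 gene entries of both count matrices. Newly made chains enter through the SEC61 translocon with its TRAP subunits, signal peptidase removes the signal peptide, and chaperones, lectins and disulfide isomerases fold the chain. Chains that do not fold are returned to the cytosol for degradation, and sensors in the ER membrane (IRE1, PERK and ATF6) raise the supply of this machinery through the transcription factors XBP1, ATF4 and ATF6. The route is best known from professional secretory cells, in the colon the plasma cells that make IgA and the goblet cells that make mucin. By role the set holds 3 sensors, 3 transcription factors, 7 chaperones of the Hsp70 and Hsp90 systems with their partners, 2 lectin chaperones, 4 disulfide isomerase family members, 2 proteins secreted on ER stress, 8 degradation genes, 6 translocon genes and 2 signal peptidase subunits. Ddit3 has 2 overlapping entries under its symbol. UMIs (unique molecular identifiers, the counted molecules) were found for 1 of these entries only, so its counts are uncertain, and 11 of the 37 members overlap an exon of another gene or entry on either strand in GENCODE M21.

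Single cells of mouse colon tumour tissue were sequenced in 2 libraries, 1 per genotype. The library labelled KO came from animals with the genotype ECM1Flox/Flox, Villin-Cre, in which Cre is driven by the Villin promoter, active in intestinal epithelium. The library labelled WT came from ECM1Flox/Flox animals without Cre, so both carry the floxed alleles of Ecm1, which encodes a secreted matrix protein. The sources used here do not give age, sex, how many animals were pooled or how the tumours arose. The deletion was not visible in the counts: Ecm1 stood at 42.1 CPM (UMIs of the gene per 1000000 UMIs of the class; 95% counting interval 40.4 to 43.9) in the main epithelial-like class of the library labelled KO and at 38.0 CPM (35.6 to 40.4) in that labelled WT. In defensin-rich cells it was higher in the library labelled KO, at 28.4 and 5.68 CPM (72 and 19 UMIs; ratio 5.01, 2.99 to 8.79). Transcripts from outside the floxed exons would still be counted. The libraries also differed in sex genes. Xist had 96515 (KO) and 5 (WT) UMIs, and Ddx3y had 0 and 5412. Each difference between the libraries is therefore a difference between 2 single libraries that differ in more than the genotype, no test is possible, and the intervals below cover counting error only.

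The library labelled KO held 75024663 UMIs in 4896 barcodes and that labelled WT 59189995 in 9512, and 4233 and 8262 cells were kept. Cells were clustered without the 37 genes and classes were named from marker genes, with "like" added because no annotation by the authors was used. Plasma-like cells numbered 150 and 137 (KO and WT throughout), B-like 136 and 269, goblet-like 168 and 32, defensin-rich epithelial cells 116 and 218, and other epithelial-like cells 2156 and 1898. Of the goblet markers (Muc2, Fcgbp, Zg16 and others) all 11 were detected in both secretory classes, with summed levels of 51055 and 82373 CPM in goblet-like and 35423 and 61141 CPM in defensin-rich cells. The 14 defensin and Paneth markers summed to 93888 and 104420 CPM in defensin-rich and to 1850 and 2546 CPM in goblet-like cells, so the defensin-rich class carried both programmes. All 10 plasma markers were detected in plasma-like cells, where immunoglobulin genes took 51.6% and 54.4% of all UMIs. The matrices shared 17 barcode sequences.

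Many genes of the ER stress response carry an ER stress response element (ERSE) in the promoter, CCAAT and CCACG with 9 bases of any kind between them, bound by NF-Y and ATF6, and a few carry ERSE-II, ATTGG and CCACG with 1 base between them. The 300-base RefSeq promoter windows, 250 bases before to 50 after the start on build GRCm38.p6, were searched on both strands for these letters. A window was found for 30 of the 37 members. ERSE was present in 9 of the 30 (30%), against 0.137% of 27025 genes with a window. These 9 were Calr, Canx, Creld2, Derl3, Dnajc3, Hsp90b1, Hspa5, Pdia6 and Syvn1, and Hsp90b1 held 2 copies. ERSE-II was present in Herpud1 and, after the start, in Dnajb11 (6.67% of members against 0.0444% of genes). Both elements are known from genes of this response, which the set includes by choice. These shares therefore describe the list and are not a test. No member held the XBP1-type core TGACGTGG, present in 0.714% of genes, or the ATF4-type element TGATGNAAT, present in 1.08%. No ERSE overlapped an ERSE-II in a member's window. The stretches below belong to members named in the results and show the element, its fixed letters in capitals on either strand, with 20 bases on each side.
Derl3 (chr10:75893222-75893280, + strand): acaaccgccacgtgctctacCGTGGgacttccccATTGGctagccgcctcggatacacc
Creld2 (chr15:88819500-88819558, + strand): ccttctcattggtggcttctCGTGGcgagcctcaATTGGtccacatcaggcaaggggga
Pdia6 (chr12:17266471-17266529, + strand): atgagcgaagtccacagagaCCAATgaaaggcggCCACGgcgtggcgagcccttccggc
Hspa5 (chr2:34772005-34772063, + strand): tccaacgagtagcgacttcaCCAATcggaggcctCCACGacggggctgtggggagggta
Hsp90b1 (chr10:86705513-86705676, - strand): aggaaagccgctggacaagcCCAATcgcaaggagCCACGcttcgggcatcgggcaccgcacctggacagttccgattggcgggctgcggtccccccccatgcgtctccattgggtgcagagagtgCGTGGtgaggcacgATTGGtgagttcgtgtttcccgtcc
Syvn1 (chr19:6046512-6046570, + strand): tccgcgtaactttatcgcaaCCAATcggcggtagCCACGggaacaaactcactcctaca
Herpud1 (chr8:94386357-94386407, + strand): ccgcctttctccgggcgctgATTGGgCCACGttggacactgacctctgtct

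Summed over the 37 genes, the level was highest in the secretory classes and lowest in neutrophil-like cells. Plasma-like cells held 17264 CPM (95% counting interval 17087 to 17442) and 16549 CPM (16341 to 16760), goblet-like cells 26702 and 19821 CPM, and defensin-rich cells 22003 and 18500 CPM. Other epithelial-like cells held 8079 and 6507 CPM, monocyte/macrophage-like cells 8367 and 7381 CPM, T and innate lymphoid-like cells 6456 and 5340 CPM, and B-like cells 4008 and 4129 CPM. Neutrophil-like cells held 1747 and 1768 CPM. Agr2 alone made up 13906 and 8938 CPM of the goblet-like sum. In plasma-like cells the immunoglobulin transcripts fill the denominator, and without immunoglobulin, mitochondrial, defensin and ribosomal RNA-linked genes the plasma-like sum was 38044 and 37129 CPM.

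**Figure D1:**
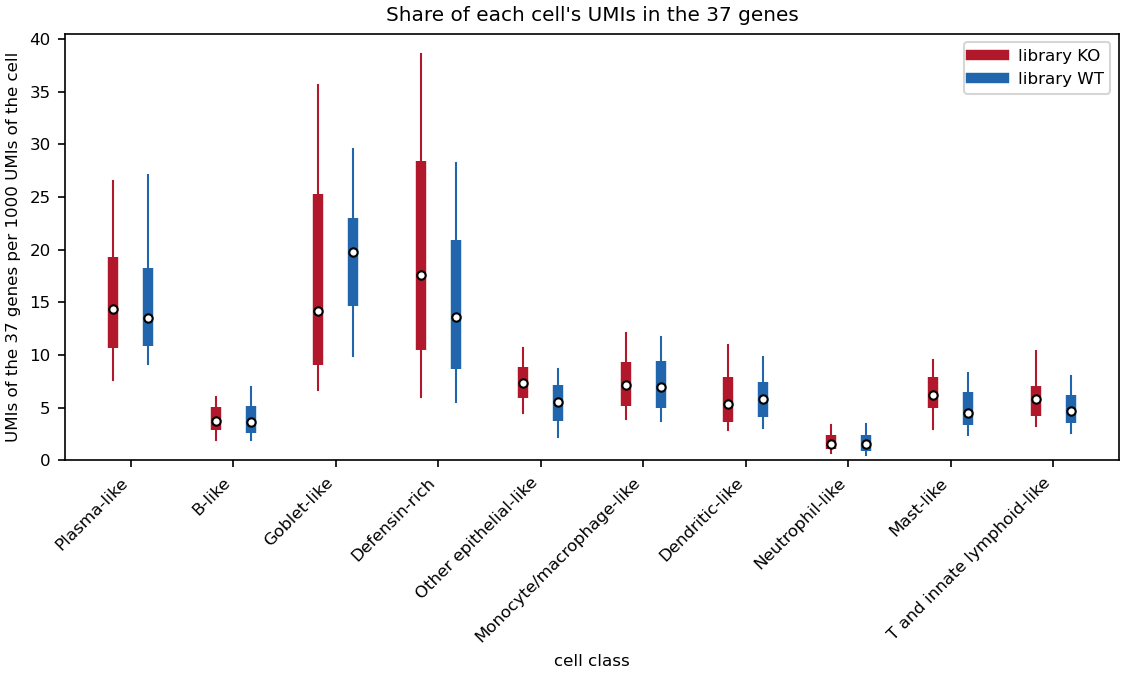
UMIs of the 37 genes per 1000 UMIs of the cell, by cell class and library (red, library labelled KO; blue, library labelled WT). Points are medians over cells, thick bars the middle 50% and thin bars the 10th to 90th percentile. Medians were 14.4 and 13.5 in plasma-like, 14.2 and 19.8 in goblet-like, 17.6 and 13.7 in defensin-rich, and 1.56 and 1.53 in neutrophil-like cells.

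Cell by cell the order of the secretory classes differed from that of the sums in the library labelled KO and was the same in that labelled WT. The median cell was highest in defensin-rich, then plasma-like and goblet-like cells in the library labelled KO, and highest in goblet-like, then defensin-rich and plasma-like cells in that labelled WT. The median goblet-like cell gave these genes 14.2 (KO) and 19.8 (WT) of 1000 UMIs, although the summed level was higher in the library labelled KO. Its goblet-like cells ranged from 6.70 at the 10th to 35.7 at the 90th percentile.

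Over the 10 classes that held 30 or more cells per library, which leave out endothelial-like and stromal-like cells, 17 of the 37 members were highest in plasma-like cells in both libraries, 5 in goblet-like cells (Agr2, Ern2, Sec61a1, Sec61b, Ssr1), 5 in defensin-rich cells (Calr, Hspa5, Hyou1, Pdia6, Ssr2) and 1, Ern1, in T and innate lymphoid-like cells. The class with the highest level differed between the libraries for the other 9. The order uses CPM over all UMIs. Immunoglobulin, mitochondrial, defensin and ribosomal RNA-linked genes took 54.6% and 55.4% of these in plasma-like and 9.95% and 8.93% in defensin-rich cells. The order without these genes, and the share of all genes highest in each class, were not computed. Some first places were near ties, the highest class over the second being 1.06 and 1.03 for Hspa5 and 1.02 and 1.14 for Sec61a1. The 2 forms of IRE1 were highest in different classes, though defensin-rich cells held both. Ern1, the widely expressed form, stood at 70.8 and 106 CPM in T and innate lymphoid-like cells and at 13.1 and 20.0 CPM in goblet-like cells. In defensin-rich cells Ern1 stood at 20.1 and 32.6 CPM. Ern2, the form of mucosal epithelium, stood at 112 and 80.2 CPM in goblet-like and 102 and 77.4 CPM in defensin-rich cells, and at 10.3 and 5.81 CPM in other epithelial-like cells. Outside the epithelial, stromal and mast-like classes it did not exceed 3.84 CPM.

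**Figure D2:**
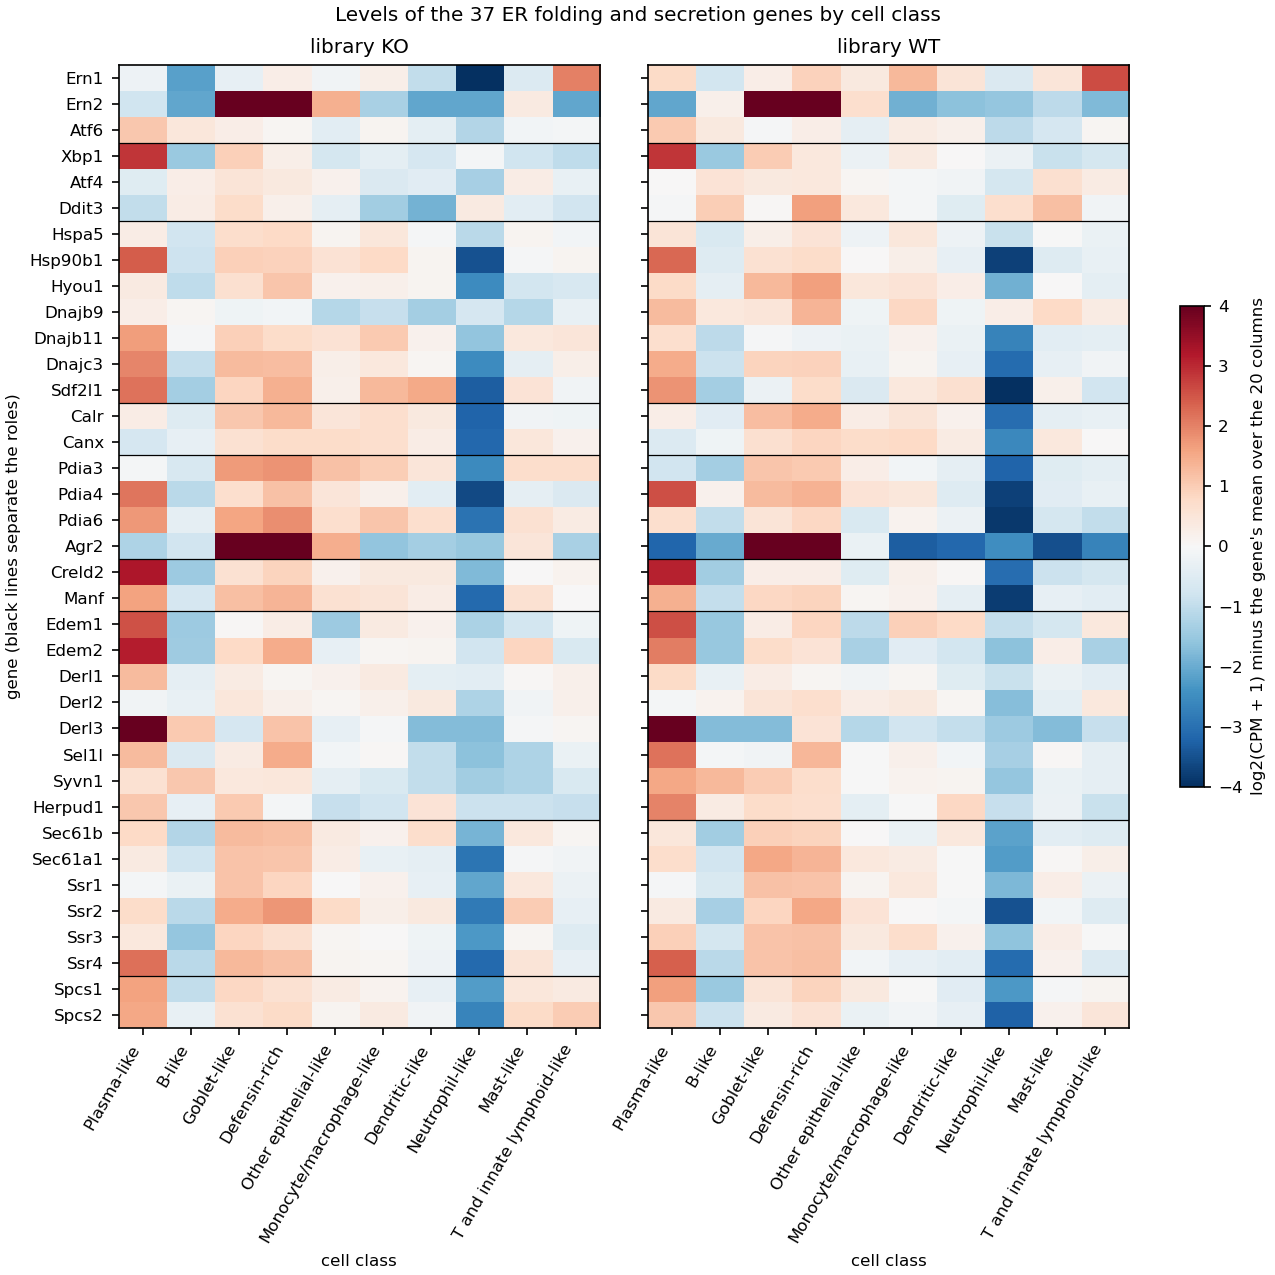
Level of each member in 10 cell classes of each library, as log2(CPM + 1) minus the gene's mean over the 20 columns (colours end at 4 on either side of 0). Xbp1, Creld2, Edem1, Edem2 and Derl3 are darkest red in plasma-like cells and Agr2 and Ern2 in goblet-like and defensin-rich cells, while the neutrophil-like column is blue for most genes.

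Plasma cells and B cells belong to the same lineage, and they were compared here as classes of the same libraries, not as stages followed in time. Of the 34 members with at least 50 UMIs in both libraries, 24 were at least 2-fold higher in plasma-like than in B-like cells in both libraries, against 6.71% of the 2996 genes compared. Ddit3 was the 1 member at least 2-fold lower (43.5% of genes were), and 9 were neither. The median log2 ratio of members was 1.84 and 1.70, against -0.97 and -1.06 over all genes. Without the immunoglobulin and other excluded genes every log2 ratio rises by 1.00 and 1.10, and 29 members are then at least 2-fold higher and 0 lower. This rise applies to all genes, and the shares of 6.71% and 43.5% were not recomputed for it, so they cannot be set beside the 29. Epithelial markers summed to 1895 and 451 CPM in plasma-like and 543 and 397 CPM in B-like cells, while neutrophil markers summed to 59.2 and 2713 CPM and to 2636 and 575 CPM. Without the cells that carry neutrophil RNA (4 and 14 plasma-like, 4 and 43 B-like) 23 members were higher, Derl1 being lost, and 1 lower. Without the cells that carry epithelial or immunoglobulin RNA of another type the count higher was again 24, and Ddit3 was no longer 2-fold lower in both libraries.

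Ranked by the interval bound nearest to 1, the member furthest above 1 was Xbp1, the transcription factor that IRE1 activates by splicing its mRNA and that plasma cell differentiation requires. It stood at 1384 and 1378 CPM in plasma-like cells and 67.1 and 67.1 CPM in B-like cells, ratios of 20.6 (13.7 to 32.6) and 20.5 (14.7 to 29.6). Both libraries gave nearly the same 2 levels. After thinning to 1000 UMIs per cell, 61.9% and 64.1% of plasma-like cells held a Xbp1 UMI and 3.76% and 4.67% of B-like cells (87.3%, 94.9%, 12.5% and 8.55% before thinning).

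By this ranking degradation genes supplied 3 of the 6 members furthest above 1, of which Derl3 had the highest ratio. Derl3, a derlin of secretory cells that helps draw misfolded chains out of the ER, stood at 257 and 211 CPM in plasma-like cells. B-like cells of the library labelled KO held 2 UMIs (5.84 CPM), a ratio of 44.0 (12.1 to 364), and those of the other library 0 UMIs, at least 36.6-fold against a floor of 3 counts. Edem1, a mannose-trimming factor that commits glycoproteins to degradation, was 16.4-fold (9.54 to 30.8) and 17.3-fold (11.0 to 28.9) higher, at 621 and 632 against 37.9 and 36.4 CPM. Its relative Edem2 was 24.7-fold (11.9 to 61.6) and 12.2-fold (6.55 to 25.7) higher, at 505 and 234 against 20.4 and 19.2 CPM. The other degradation genes were less far apart: Sel1l was 3.67- and 4.77-fold, Herpud1 2.63- and 3.20-fold and Derl1 3.10- and 2.14-fold higher. Derl2 stood at 35.5 and 37.7 CPM against 32.1 and 44.1 CPM, and Syvn1, the ubiquitin ligase that works with Sel1l, at 42.2 and 81.6 against 58.4 and 69.0 CPM, so both were within 2-fold over all UMIs.

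Creld2, a secreted ER stress protein, was 27.3-fold (11.7 to 84.3) and 23.2-fold (11.7 to 54.0) higher, at 399 and 356 CPM against 14.6 and 15.3 CPM. Manf, the other member released on ER stress, was 4.88- and 5.23-fold higher. Ssr4, a TRAP subunit of the translocon, was 9.68-fold (7.55 to 12.6) and 11.2-fold (9.14 to 13.9) higher, at 1780 and 2043 against 184 and 182 CPM. Over all UMIs the 6 translocon genes did not move together. Sec61b (3.92 and 3.64), Ssr3 (4.00 and 3.12), Ssr2 (3.51 and 3.31) and Sec61a1 (2.22 and 2.79) were at least 2-fold higher, whereas Ssr1 had ratios of 1.14 and 1.504. Without the excluded genes every log2 ratio rises by 1.00 and 1.10, and Ssr1 then also passes 2-fold in both libraries. Both signal peptidase subunits were higher, Spcs1 6.07- and 8.74-fold and Spcs2 3.66- and 3.79-fold.

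Among chaperones, Hsp90b1 (GRP94, the Hsp90 of the ER) was 9.52- and 6.98-fold higher and Sdf2l1 11.7- and 9.11-fold, while Hspa5 (BiP, the Hsp70 of the ER) was 2.07- and 2.16-fold higher, a call lost under 4 of the 10 alternatives. Dnajc3 (7.77 and 5.12), Dnajb11 (3.31 and 3.35) and Hyou1 (2.64 and 2.21) also passed 2-fold, and Dnajb9 (1.13 and 1.79) did not. The lectin chaperones that hold glycoproteins during folding stayed within 2-fold over all UMIs: Calr had ratios of 1.77 and 1.64, and Canx 0.78 and 0.77 (log2 ratios of 0.64 and 0.72 without the excluded genes). Of the disulfide isomerases, Pdia4 (9.47 and 5.29) and Pdia6 (4.31 and 3.19) were higher and Pdia3, the partner of the lectin chaperones, had ratios of 1.45 and 1.52. Agr2 (85 and 14 UMIs in plasma-like cells) and the sensors Ern1 (30 and 42) and Ern2 (3 and 0) had too few UMIs to compare, and Atf6 had ratios of 1.54 and 1.61. Without the excluded genes every log2 ratio rises by 1.00 and 1.10. Calr, Pdia3, Dnajb9 and Atf6 then pass 2-fold in both libraries, so their place under 2-fold depends on the denominator.

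The PERK branch factors Ddit3 and Atf4 had ratios below 1 over all UMIs, a direction that depends on the denominator. Ddit3 (CHOP, the stress factor linked to cell death) stood at 25.6 and 50.1 CPM in plasma-like cells and 64.2 and 104 CPM in B-like cells, ratios of 0.40 (0.24 to 0.69) and 0.48 (0.34 to 0.70). Without the excluded genes its log2 ratios were -0.33 and 0.056. Atf4 stood at 131 and 184 against 219 and 268 CPM, ratios of 0.60 (0.46 to 0.78) and 0.68 (0.56 to 0.85), and without the excluded genes its log2 ratios were 0.26 and 0.56, above 0 in both libraries. The 9 members with an ERSE in the promoter spanned almost the whole range of ratios, from Derl3 and Creld2 at the top to Syvn1 (0.72 and 1.18) and Canx.

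**Figure D3:**
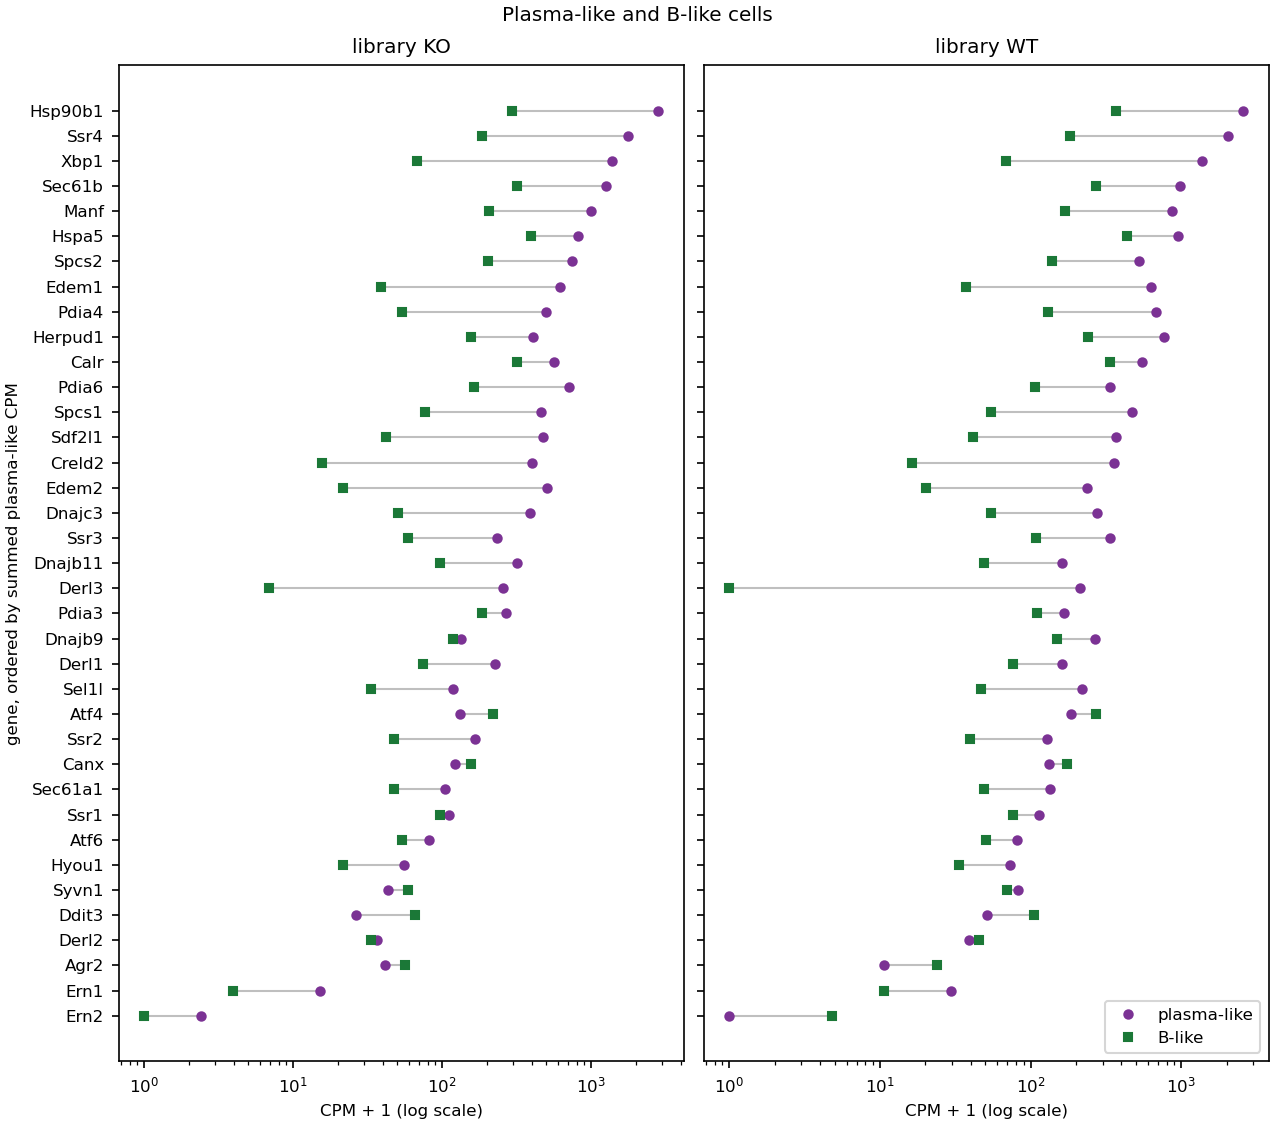
CPM + 1 (log axis) of each member in plasma-like cells (purple circles) and B-like cells (green squares) of each library, with 1 grey line per gene and genes ordered by the summed plasma-like CPM. The plasma-like circle lies to the right for most genes and to the left for Agr2, Atf4, Canx and Ddit3 in both libraries, where CPM is taken over all UMIs (Atf4 and Canx lie to the right in both libraries without the excluded genes). Xbp1 lies at 1384 and 1378 CPM against 67.1 CPM.

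Other ER genes outside the 37, a list of 83, behaved in the same comparison as follows. Of 62 compared 25 were at least 2-fold higher (6.71% of all genes) and 2 lower (43.5%), with median log2 ratios of 0.93 and 0.94. Fkbp11, a prolyl isomerase of secretory cells, stood at 217 and 152 CPM with 0 UMIs in B-like cells of both libraries, at least 24.8- and 26.5-fold higher. The disulfide isomerase Txndc5 was 43.8- and 17.6-fold higher and the cargo receptor Lman1 16.7- and 12.1-fold. Furthest below were Stt3b, a catalytic subunit of oligosaccharyltransferase (0.22 and 0.24), Ppp1r15a, the phosphatase subunit that ends PERK signalling (0.31 and 0.33), and Cebpb (0.22 and 0.76, not 2-fold lower in both). These 83 genes were not recomputed without cells carrying neutrophil RNA.

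Goblet-like cells showed a narrower difference from the other epithelial-like cells. Of 36 members compared, 9 were at least 2-fold higher in both libraries (5.02% of 12733 genes were) and 0 were at least 2-fold lower (15.2% of genes). The median log2 ratio was 0.68 and 0.74, against -0.37 and -0.36 over all genes. Derl3, with 2 and 0 UMIs in goblet-like cells, could not be compared. Agr2, the disulfide isomerase family member that mucin production requires, stood at 13906 and 8938 CPM in goblet-like cells and at 266 and 78.8 CPM in other epithelial-like cells, ratios of 52.4 (51.3 to 53.5) and 113 (107 to 120). At 1000 UMIs per cell 87.0% and 100% of goblet-like cells held an Agr2 UMI, with 16.1% and 4.97% of other epithelial-like and 4.10% and 1.26% of neutrophil-like cells (92.9%, 100%, 61.9%, 30.4%, 8.96% and 3.12% before thinning). Median depths before thinning were 3168 and 3006 UMIs in goblet-like and 2843 and 1912 in neutrophil-like cells. Ern2 followed at ratios of 10.8 (9.17 to 12.7) and 13.8 (8.57 to 21.3).

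The remaining 7 members past 2-fold belonged to several steps of the route. They were Xbp1 (3.17 and 2.39), Herpud1 (3.92 and 2.19), Edem1 (2.88 and 2.61), Edem2 (2.22 and 4.23), Ssr4 (2.26 and 2.41), Ssr1 (2.17 and 2.11) and Dnajc3 (2.03 and 2.32). Ssr1, less than 2-fold higher in plasma-like than B-like cells over all UMIs, was among the higher genes in goblet-like cells. Without the excluded genes every log2 ratio of plasma-like over B-like cells rises by 1.00 and 1.10, so this contrast depends on the denominator. Creld2, Sdf2l1 and Pdia4, far higher in plasma-like cells, had ratios in goblet-like cells of 1.39 and 1.70, 1.56 and 1.29, and 1.16 and 1.65. No member lay below 1 beyond its interval in both libraries. The 4 members Agr2, Ern2, Xbp1 and Herpud1 passed 2-fold also when each cell had equal weight and when the 5 richest cells of each gene were left out, while Dnajc3, Edem1, Edem2, Ssr1 and Ssr4 did not. The library labelled WT had only 32 such cells.

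Defensin-rich cells, which also carried goblet markers, were at least 2-fold higher in both libraries for 10 of 36 members (3.28% of 12973 genes were) and lower for 0 (10% of genes). The median log2 ratio was 0.82 and 0.86, against -0.39 and -0.41 over all genes. Agr2 stood at 8954 and 6472 CPM, ratios of 33.7 (33.0 to 34.4) and 82.1 (78.4 to 86.0) over other epithelial-like cells, and Ern2 was 9.86-fold (8.47 to 11.5) and 13.3-fold (10.8 to 16.4) higher. Edem2 was 3.60- and 3.75-fold and Edem1 3.48- and 3.82-fold higher. Sel1l, the adaptor that brings substrates to Syvn1, stood at 136 and 123 CPM against 44.7 and 47.6 CPM, ratios of 3.04 (2.70 to 3.40) and 2.59 (2.31 to 2.90). In goblet-like cells its ratios were 1.36 and 0.91. Pdia6 was 2.30- and 2.70-fold, Sdf2l1 2.33- and 2.54-fold, Ssr4 2.09- and 2.49-fold, Dnajb9 2.08- and 2.93-fold and Dnajc3 2.01- and 2.38-fold higher. Xbp1 had ratios of 1.94 and 1.57 and Herpud1 1.81 and 2.08, so neither passed 2-fold in both libraries. Dnajb9, Dnajc3 and Ssr4 fell under 2-fold without the 5 richest cells of each gene.

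**Figure D4:**
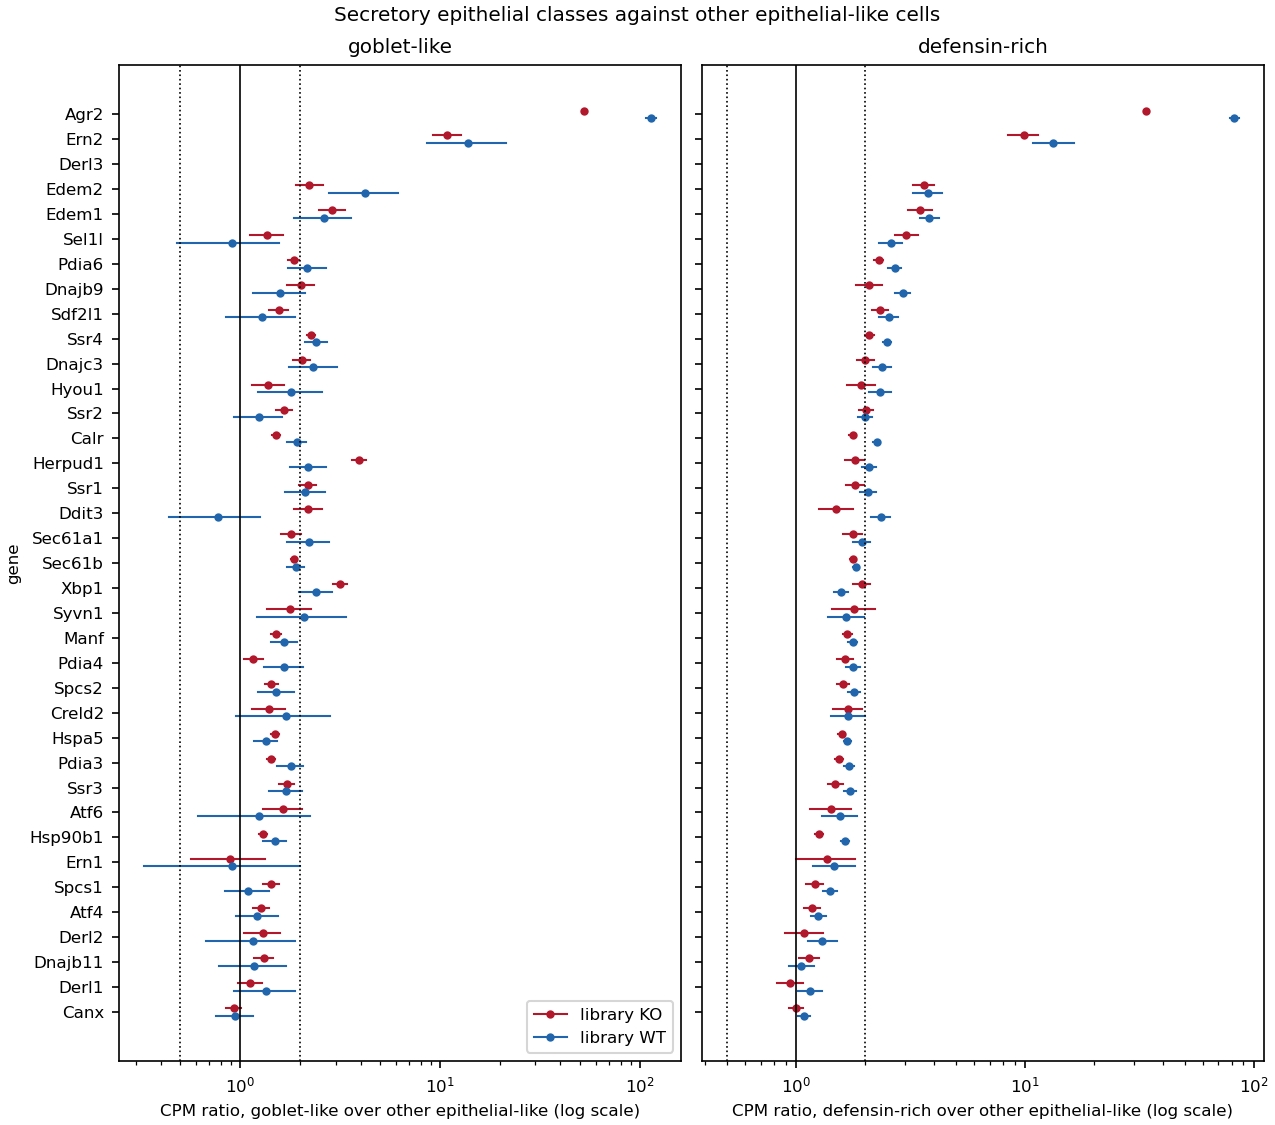
Ratio of CPM (log axis) in goblet-like (left) and defensin-rich cells (right) over other epithelial-like cells, for each member with enough UMIs, in the library labelled KO (red) and WT (blue), with 95% counting intervals. Genes are ordered by the mean defensin-rich ratio, dotted lines mark 2-fold, and Agr2 (33.7 to 113) and Ern2 (9.86 to 13.8) lie to the right of all others.

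Among the 83 other ER genes, 15 of 82 compared were at least 2-fold higher in goblet-like cells (5.02% of all genes) and 1 lower (15.2%). In defensin-rich cells 18 of 82 were higher (3.28% of all genes) and 0 lower (10%). Kdelr3, a receptor that returns escaped ER proteins from the Golgi, was 27.1- and 34.2-fold higher in goblet-like and 10.7- and 18.3-fold in defensin-rich cells. Fkbp11 was 11.2- and 15.5-fold and 8.26- and 10.1-fold higher. Creb3l1, a membrane-bound factor of secretory cells, was 10.0- and 17.8-fold higher in goblet-like cells, and Txndc5 was 4.45- and 4.51-fold higher in defensin-rich cells. The furthest below 1 in both classes included the signal recognition particle subunit Srp14 (0.55 and 0.48 in goblet-like, 0.72 and 0.69 in defensin-rich cells).

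Between the libraries the median member differed little, and a few members differed in nearly every class. In plasma-like cells 5 of 36 members were at least 1.5-fold higher in the library labelled KO (21.7% of 4312 genes were) and 6 at least 1.5-fold lower (20% of genes), with a median log2 ratio of -0.01 against 0.05 over all genes. Members past 1.5-fold were therefore no larger a share than among all genes. In these cells neutrophil markers summed to 59.2 and 2713 CPM, and without the cells that carry neutrophil RNA the same 5 and 6 members passed. Edem2 stood at 505 and 234 CPM (ratio 2.16, 1.91 to 2.45), Pdia6 at 704 and 337 CPM (2.09, 1.89 to 2.32), Dnajb11 at 318 and 160 CPM (1.98, 1.71 to 2.31) and Pdia3 at 267 and 167 CPM (1.60, 1.38 to 1.87). The chaperone partner Dnajb11 and the isomerases Pdia3 and Pdia6 act on the chain as it folds. Spcs2 had a ratio of 1.41. Herpud1 stood at 407 and 767 CPM (0.53, 0.48 to 0.58), Dnajb9 at 132 and 265 CPM (0.50, 0.43 to 0.58), Sel1l at 118 and 219 CPM (0.54, 0.45 to 0.64), Syvn1 at 42.2 and 81.6 CPM (0.52, 0.39 to 0.69) and Ddit3 at 25.6 and 50.1 CPM (0.51, 0.35 to 0.74). Herpud1, Sel1l and Syvn1 are parts of the same degradation complex, and Dnajb9 is a cochaperone of Hspa5 that restrains IRE1. Ern1 (30 and 42 UMIs) had a ratio of 0.49 (0.30 to 0.81) and was the last of the 6 lower members. Ssr3 had a ratio of 0.70, and Xbp1 was level at 1.00 (0.95 to 1.06).

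Agr2 was the member with the highest ratio in plasma-like cells, at 40.3 and 9.60 CPM (85 and 14 UMIs; 4.20, 2.37 to 8.00). Epithelial markers, all 10 of which were detected, moved with it, at 1895 and 451 CPM. Without the 46 and 10 plasma-like cells that carried epithelial RNA, Agr2 was no longer among the members past the minimum of 50 UMIs and 1.5-fold. In mast-like cells Agr2 had a ratio of 17.9, and the epithelial markers summed to 6842 and 400 CPM. In monocyte/macrophage-like cells its ratio was 3.54 (2.64 to 4.78) with epithelial markers at 640 and 208 CPM, and the log2 ratio of 1.82 was 0.93 without cells carrying other RNA.

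In goblet-like cells 6 of 35 members were at least 1.5-fold higher in the library labelled KO (16.9% of 5401 genes) and 4 lower (13.3%), and the median log2 ratio was 0.30 against 0.02. Enteroendocrine markers (Pyy, Insl5, Gcg and others) summed to 2950 CPM in these cells of the library labelled KO, with 1 of 8 at 0, and all 8 were at 0 in the library labelled WT. Neutrophil markers summed to 49.8 and 434 CPM and goblet markers to 51055 and 82373 CPM. Without the 2 cells that carried the enteroendocrine RNA, which left 9.44 CPM, the same 6 and 4 members passed, as did the same 9 over other epithelial-like cells. The part of the goblet and neutrophil markers in these ratios was not tested. Pdia6 had a ratio of 2.09 (1.68 to 2.62), Sdf2l1 2.12 (1.43 to 3.26), Dnajb11 2.001 (1.37 to 3.03) and Ssr2 1.54 (1.16 to 2.08). Agr2 stood at 13906 and 8938 CPM (1.56, 1.495 to 1.62), yet with each cell given equal weight its log2 ratio was -0.27. Ddit3 had a ratio of 1.63 from 159 and 16 UMIs, with an interval from 0.97 to 2.92, and this was the 1 class in which it was above 1. Pdia4 (0.66, 0.52 to 0.86), Hyou1 (0.63, 0.42 to 0.97), Dnajb9 (0.63, 0.46 to 0.90) and Syvn1 (0.66, 0.38 to 1.19) were lower, and the log2 ratios of Dnajb9 and Syvn1 became 0.85 and 0.34 without the 5 richest cells, which are a larger share of 32 than of 168 cells. Pdia3 had a ratio of 1.496 (1.28 to 1.75) and Hspa5 of 1.38 (1.21 to 1.59), and Sec61a1 of 0.75 (0.58 to 0.98).

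In defensin-rich cells 6 of 36 members were higher (12.2% of 8706 genes) and 4 lower (11.3%), and the median log2 ratio was -0.02 against 0.02. Pdia6 stood at 771 and 371 CPM (2.08, 1.94 to 2.23), Dnajb11 at 168 and 86.9 CPM (1.93, 1.66 to 2.25), Edem2 at 160 and 83.0 CPM (1.93, 1.65 to 2.26) and Pdia3 at 988 and 587 CPM (1.68, 1.59 to 1.79). Sdf2l1 had a ratio of 1.60 and Creld2 of 1.57, and Agr2 of 1.38 (1.36 to 1.41). Dnajb9 stood at 101 and 285 CPM (0.35, 0.31 to 0.41) and Ddit3 at 59.6 and 162 CPM (0.37, 0.30 to 0.44). Herpud1 (0.60) and Ern1 (0.62, not 1.5-fold lower without cells carrying neutrophil RNA) were the other members lower, and Ssr3 (0.70), Edem1 (0.68) and Hyou1 (0.68) were within 1.5-fold.

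In other epithelial-like cells, the deepest class with 53053840 and 25800427 UMIs, 9 of 37 members were higher (10.4% of 15166 genes) and 2 lower (16%), and the median log2 ratio was 0.17 against -0.02. Agr2 stood at 266 and 78.8 CPM (3.37, 3.21 to 3.53), Pdia6 at 335 and 137 CPM (2.44, 2.35 to 2.53), Edem2 at 44.5 and 22.1 CPM (2.01, 1.83 to 2.21), Pdia3 at 644 and 344 CPM (1.87, 1.83 to 1.92) and Dnajb11 at 148 and 82.3 CPM (1.79, 1.71 to 1.88). Derl3 had 88 and 13 UMIs (3.29, 1.83 to 6.43). Sdf2l1 (1.75), Ern2 (1.78) and Creld2 (1.58) completed the 9. Dnajb9 stood at 48.6 and 97.3 CPM (0.50, 0.47 to 0.53) and Ddit3 at 39.8 and 69.2 CPM (0.58, 0.54 to 0.61). With each cell given equal weight Dnajb9, at a log2 ratio of -0.55, was under 1.5-fold lower. Herpud1 (0.69), Xbp1 (0.71), Ern1 (0.67) and Edem1 (0.75) were lower by less than 1.5-fold. The class holds 7 clusters, of which 1 had 24 KO and 432 WT cells. Within the other 6 clusters the ratio of Pdia6 ran from 2.16 to 2.68, that of Dnajb11 from 1.67 to 1.92, that of Dnajb9 from 0.45 to 0.69 and that of Ddit3 from 0.50 to 1.01. The ratio of Agr2 ran from 1.54 to 4.36. That of Ern2 ran from 0.79 to 2.39, so Ern2 was not higher in every cluster.

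In monocyte/macrophage-like cells 5 of 35 members were higher (14.7% of 9684 genes) and 9 lower (17.3%), and the median log2 ratio was -0.02 against -0.03. Pdia3 stood at 563 and 266 CPM (2.12, 1.999 to 2.25), Pdia6 at 454 and 229 CPM (1.98, 1.85 to 2.11), Dnajb11 at 207 and 112 CPM (1.84, 1.68 to 2.02) and Sdf2l1 at 263 and 143 CPM (1.84, 1.69 to 2.002). Hsp90b1 had a ratio just under 1.5-fold (1.44 to 1.56). Dnajb9 stood at 56.7 and 196 CPM (0.29, 0.25 to 0.33), Ddit3 at 18.8 and 48.8 CPM (0.39, 0.30 to 0.49) and Ern1 at 19.8 and 42.4 CPM (0.47, 0.36 to 0.60). Xbp1 stood at 144 and 245 CPM (0.59, 0.54 to 0.65), Herpud1 had a ratio of 0.59 (0.53 to 0.66) and Ssr3 of 0.62 (0.57 to 0.67). Syvn1, Sec61a1 and Edem1 were the other 3 lower members. The largest share of the KO cells lay in a cluster led by C1q genes and Apoe (237 of 510 cells), and the largest share of the WT cells in a cluster led by Ccl24, Arg1 and Inhba (520 of 1291 cells).

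In the further classes the counts of members higher and lower by 1.5-fold were 3 and 4 of 22 in B-like cells (11.2% and 20.3% of genes), 5 and 8 of 34 in dendritic-like cells (14.5% and 22.7%), 8 and 5 of 29 in neutrophil-like cells (13.5% and 28.4%), 7 and 5 of 30 in mast-like cells (29.4% and 23.2%) and 9 and 3 of 35 in T and innate lymphoid-like cells (10.2% and 22.9%). The ribosomal RNA-linked genes Rn18s-rs5, Lars2 and Mir6236 took 1.22% to 6.32% of UMIs in the 10 classes of the library labelled KO and 0.194% to 0.640% in those labelled WT, and their part in these ratios was not tested. Without them and the other excluded genes every log2 ratio between the libraries shifts by between -0.03 and 0.09.

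**Figure D5:**
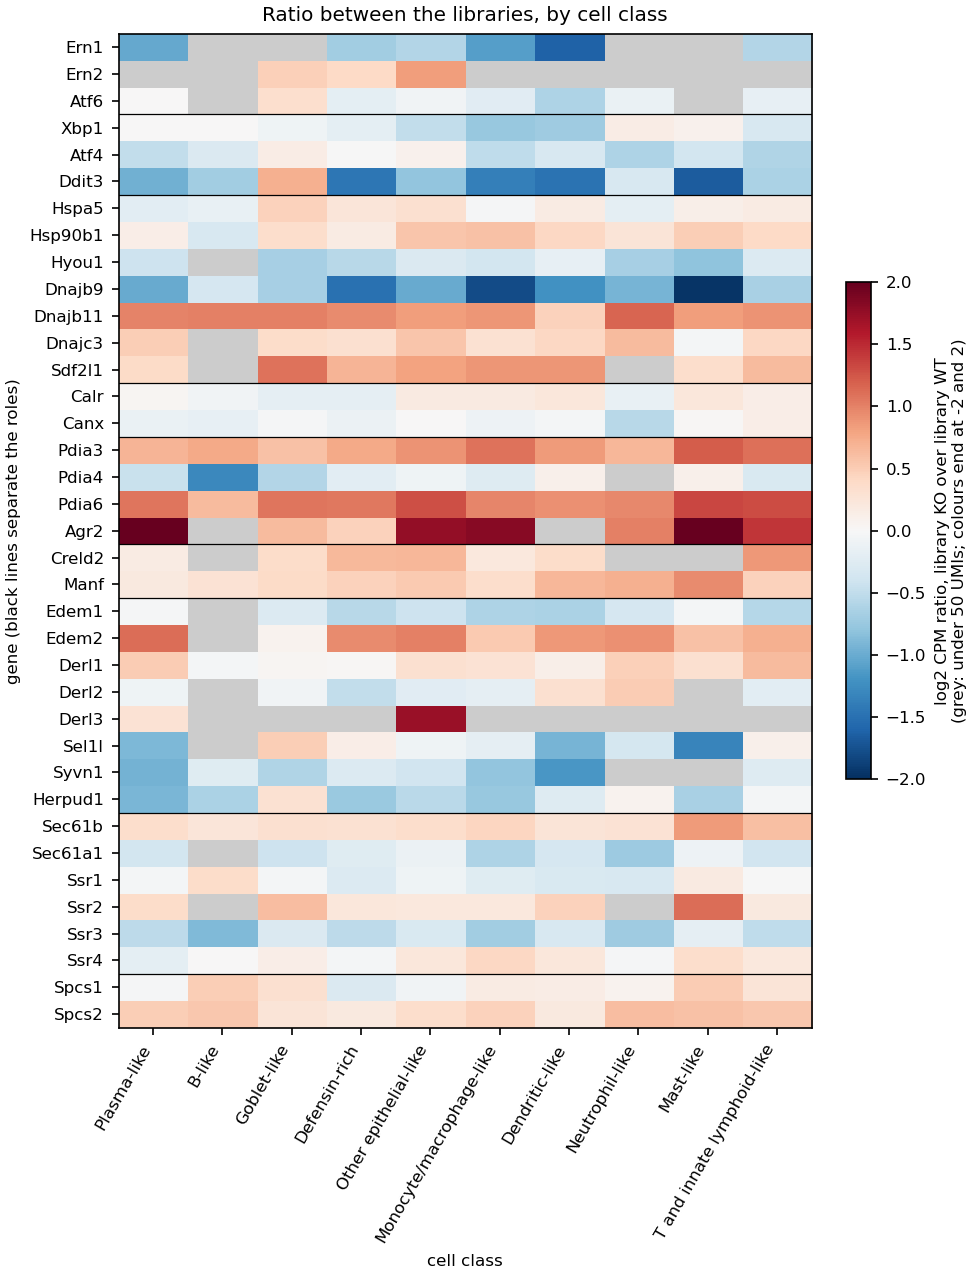
log2 ratio of CPM in the library labelled KO over that labelled WT for each member in 10 cell classes (red, higher in KO; blue, lower; grey, under 50 UMIs over both libraries; colours end at 2 on either side of 0). The rows of Pdia6, Pdia3 and Dnajb11 are red in every class (ratios of 1.37 to 2.52) and that of Dnajb9 is blue in every class (0.26 to 0.79).

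Read across the 10 classes, 16 of 33 members stayed on 1 side of a ratio of 1 and 17 did not. Of the 33 members compared in at least 8 classes, 10 had a ratio above 1 in every class compared (16.6% of 3483 genes did) and 6 a ratio below 1 in every class (14.8%). Pdia6 was at least 1.5-fold higher in all 10 classes, 1 of 33 members against 0.861% of genes, a count that was 0 with each cell given equal weight (Pdia6 was then under 1.5-fold in goblet-like cells, at a log2 ratio of 0.54) and without the 5 richest cells. At least 1.5-fold lower in every class were 0 members (0.947% of genes), or 1, Dnajb9, without cells carrying neutrophil RNA, where goblet-like cells were too few to compare. These classes come from the same 2 libraries, so their agreement is not replication. Pdia3 ran from 1.496 in goblet-like to 2.31 in mast-like cells and Dnajb11 from 1.37 in dendritic-like to 2.25 in neutrophil-like cells, each past 1.5-fold in 9 of 10 classes. Sdf2l1 (1.27 to 2.12), Edem2 (1.05 to 2.16), Manf (1.14 to 1.92), Sec61b (1.18 to 1.80), Ssr2 (1.15 to 2.16), Spcs2 (1.14 to 1.53) and Agr2 (1.38 to 17.9) completed those above 1 throughout. Agr2 was not among them without cells carrying RNA of another type or with equal weight. The mast-like values here and below include cells with RNA of another type, 27 of 68 (KO) and 19 of 262 (WT). Epithelial markers summed to 6842 and 400 CPM in that class.

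Dnajb9 was below 1 in all 10 classes and past 1.5-fold in 9, from 0.26 in mast-like to 0.79 in B-like cells, where its interval (0.53 to 1.17) spanned 1. Hyou1, an Hsp110-type partner of Hspa5 (0.57 to 0.89), Edem1 (0.64 to 0.98), Syvn1 (0.45 to 0.85), Sec61a1 (0.60 to 0.94) and Ssr3 (0.54 to 0.89) were the other 5 below 1 throughout. Ddit3 was at least 1.5-fold lower in 8 of 10 classes, from 0.32 in mast-like cells, with 0.80 in neutrophil-like and 1.63 in goblet-like cells. Ern1 was below 1 in all 6 classes with enough UMIs (0.33 to 0.67).

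Within some roles genes lay on opposite sides of 1. Within the TRAP complex Ssr2 was above 1 and Ssr3 below 1 in every class, while Ssr1 (0.80 to 1.29) and Ssr4 (0.87 to 1.33) lay on both sides, and in the SEC61 channel Sec61b was above and Sec61a1 below. Among degradation genes Edem2 was above and its relative Edem1 below. Not all of these held in every class under the alternatives. Without cells carrying RNA of another type Sec61a1, Edem1, Syvn1 and Hyou1 were no longer below 1 in every class, leaving Dnajb9 and Ssr3. Without the 5 richest cells Ssr3, Dnajb9, Edem1 and Syvn1 left that list, and Ssr2 was no longer above 1 in every class. With equal weight Sec61a1, Edem1 and Hyou1 left it, and Edem2, Sec61b and Agr2 were no longer above 1 in every class. Agr2 was also missing from the members above 1 in every class without cells carrying RNA of another type. Among disulfide isomerases Pdia4 (0.41 to 1.07) did not follow Pdia3 and Pdia6. The lectin chaperones Calr (0.88 to 1.17) and Canx (0.68 to 1.10), the chaperones Hspa5 (0.86 to 1.38) and Hsp90b1 (0.80 to 1.4998), and Spcs1 (0.82 to 1.42) passed 1.5-fold in 0 classes. Of the ERSE-bearing genes printed above, Pdia6 lay above 1 and Syvn1 below 1 in every class compared, and Hspa5 within 1.5-fold.

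Of the 83 other ER genes, some lay on either side of 1. In plasma-like cells 14 of 76 compared were at least 1.5-fold higher and 17 lower, in goblet-like cells 11 and 7 of 74, in defensin-rich cells 8 and 7 of 77, in other epithelial-like cells 12 and 6 of 83 and in monocyte/macrophage-like cells 10 and 17 of 77. Of all genes, 21.7% and 20% were higher and lower in plasma-like, 16.9% and 13.3% in goblet-like and 12.2% and 11.3% in defensin-rich cells. The shares were 10.4% and 16% in other epithelial-like and 14.7% and 17.3% in monocyte/macrophage-like cells. In goblet-like and defensin-rich cells both shares of the other ER genes were below those of all genes, and in plasma-like cells near them. Ddost, a subunit of oligosaccharyltransferase, was the furthest above 1 in plasma-like cells (2.65, 2.26 to 3.12), and its ratio was 1.66 in goblet-like, 1.78 in defensin-rich, 1.90 in other epithelial-like and 2.05 in monocyte/macrophage-like cells. Erp44, which retains unfinished disulfide-bonded proteins, had ratios of 1.87 in plasma-like and defensin-rich cells and 1.78 in other epithelial-like cells. P4hb, the founding protein disulfide isomerase, was lower in goblet-like (0.62) and defensin-rich cells (0.59). Cebpb, a partner of the PERK branch factors, was furthest below 1 in plasma-like (0.35) and goblet-like cells (0.39), Txndc11 in defensin-rich (0.40) and monocyte/macrophage-like cells (0.40), and the oxidase Ero1a in other epithelial-like cells (0.49). Neutrophil markers summed to 59.2 and 2713 CPM in plasma-like and 49.8 and 434 CPM in goblet-like cells. The part of neutrophil RNA in the Cebpb ratios was not tested.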

How the data were processed

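The deposited values are unnormalized UMI counts for each gene in each barcode, which the authors obtained from Cell Ranger 7.2.0, per the file headers. GRCm39 is the build named by the submitters' processing notes. No source used here gives alignment settings or annotation, and the protocol in the labels does not describe a single-cell method. A barcode was kept if it had 200 genes or more and less than 20% mitochondrial UMIs. Scrublet marked 0.0456% of the library labelled KO, which is no working call, so the highest-scoring 0.8% per 1000 barcodes were removed in both (154 and 633). The cells were clustered together (2000 variable genes without the members and other ER genes, 30 components, 15 neighbours, Leiden resolution 1, seed 0) in Python 3.11.15 with scanpy 1.11.5, scikit-learn 1.9.0, igraph 0.11.9, numpy 2.4.6, scipy 1.17.1, pandas 2.3.3, anndata 0.12.19 and matplotlib 3.10.9. Clusters were named from 20 marker lists (194 genes), needing 3 markers detected in 10% of cells, and a cluster led by ribosomal RNA-linked genes (29 and 78 cells) stayed unnamed. Endothelial-like and stromal-like cells (15 and 13 in the library labelled WT) were left out of the order of classes and the ratios between libraries, which needed 30 cells each.

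For each class of each library a gene's UMIs were added up and expressed as CPM of that class. Sums carry exact Poisson and ratios exact conditional binomial 95% intervals, for counting error only. Genes needed 50 UMIs over the classes or libraries compared. The calls and intervals were tested on simulated counts. These counts held counting error only, so they cannot show how the calls behave with spread between cells or libraries. All members are accounted for. Full values go to up to 6 members above and below 1 per comparison, ranked by the interval bound nearest to 1, and to 3 other ER genes each way. The members and lists were chosen with earlier results of these data known. Alternatives changed the denominator, cell weights, filters, clustering and UMI minimum, or left out cells carrying RNA of another type. Those on enteroendocrine and neutrophil RNA (over 1 per 1000 UMIs) were chosen after seeing the data.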

Additional observations from a re-analysis of the deposited data

How the results depend on the processing

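No paired analysis was possible because each group has 1 library. The comparisons between classes, those between libraries in plasma-like, goblet-like, defensin-rich, other epithelial-like and monocyte/macrophage-like cells, and the counts across classes were recomputed for the members under 10 alternatives. The counts of the further classes and of the 83 other ER genes were not recomputed. With CPM taken without immunoglobulin, mitochondrial, defensin and ribosomal RNA-linked genes, members lower in plasma-like than B-like cells went from 1 to 0 (the log2 ratio of Ddit3 in the library labelled WT was 0.056) and members lower in goblet-like cells of the library labelled KO from 4 to 2. Members at least 2-fold higher in goblet-like than other epithelial-like cells went from 9 to 4 with each cell given equal weight and without the 5 richest cells of each gene, and to 5 without doublet removal and without the mitochondrial filter. With equal weight the log2 ratio of Agr2 between the libraries in goblet-like cells was -0.27, and members lower in other epithelial-like cells went from 2 to 1, Dnajb9 being lost. Without the mitochondrial filter 2 members were lower in goblet-like cells of the library labelled KO. Without cells carrying RNA of another type 0 members were lower in plasma-like than B-like cells. Without the 5 richest cells, members higher in goblet-like cells of the library labelled KO went from 6 to 15 and lower from 4 to 1, with log2 ratios of 0.85 for Dnajb9 and 0.34 for Syvn1, and members lower in defensin-rich cells from 4 to 7. Across classes, alternatives added after seeing the data gave 2 members at least 1.5-fold higher in every class with the reduced denominator, without doublet removal, without the mitochondrial filter and at Leiden resolution 2, and 0 with equal weight and without the 5 richest cells, where Pdia6 was lost. Without cells carrying neutrophil RNA 1 member, Dnajb9, was at least 1.5-fold lower in every class compared, and the goblet-like libraries could not be compared (24 WT cells left). Members below 1 in every class went from 6 to 3 with equal weight and without the 5 richest cells, and to 2 without cells carrying other RNA. The cause of these shifts was not tested. The other recomputed counts stayed within 1.5 times, but a stable count can hide a change of members. Between the libraries in goblet-like cells, equal weight kept 3 of the 6 higher members and lost Ddit3, Pdia6 and Agr2. Of the 4 lower members it kept 2 and lost Dnajb9 and Syvn1. Without the mitochondrial filter 1 of those 4 lower members, Dnajb9, was kept, and Ddit3 left the higher ones. Without doublet removal Agr2 and Ssr2 left the higher ones. The goblet-like results rest on 32 cells in the library labelled WT, and 1 library per genotype leaves the spread between animals unknown.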
